A study of Mus musculus with 80 samples.

Results

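The receptors described here are 32 nuclear receptors of the mouse liver other than the core clock's own, taken by symbol from the raw gene count table when they had at least 10 counts in 4 or more of the 80 libraries. All 32 named receptors met that rule, out of 78275 genes listed and 21187 genes tested. The study sampled the livers of C57BL/6J males and females, 8 to 12 weeks old, from CT8 to CT44 every 4 h (CT, circadian time, in hours) in constant darkness. Control mice kept chow ad libitum throughout, and fasted mice lost their food at CT10, so both groups were still fed at CT8. Each treatment and time had 2 males and 2 females, each library from the liver of a separate mouse, and the labels name no transgene or drug in any group. Groups follow the sample titles, because other label fields gave another sex or treatment for part of the libraries.

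Nuclear receptors are transcription factors whose ligand-binding pocket senses small lipophilic molecules such as fatty acids, retinoids, oxysterols, thyroid hormone and steroids. Many bind DNA as a pair with a retinoid X receptor, and their pairing with coactivators or corepressors sets whether a target gene is transcribed. In the liver they are known for switching fatty acid oxidation, bile acid and cholesterol handling and drug metabolism as feeding changes. These data hold transcript levels, not receptor protein, ligand or DNA binding.

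The libraries held 25534901 to 59927771 counts, and levels are given as CPM, counts scaled to the size of the library, after scaling by the trimmed mean of M values (TMM). One library, female 2 of the control CT8 group, had 31.3% of its counts on a ribosomal RNA gene, against 4.88% in the next highest library. Its level enters only the CT8, sex and control rhythm estimates below. The SE and p-values of the other fasting tests also draw on it, since all 80 libraries shared 1 fit. Fasted CT40 female 2 lay farthest from the other libraries of its own treatment and time, with a median absolute log2 distance of 0.54 against a median of 0.24 over all libraries, and fasted CT44 female 1 had 0.41. The hepatokine Fgf21 differed by a log2 of 3.95 and the lipogenic regulator Srebf1 by -3.13, fasted minus control, in the direction of the titles. Of the hepatocyte markers, 4 of 6 rose and 1 fell with fasting, beside 29.5% and 32.9% of all genes. They ran from Ttr at a log2 of -0.48 to Tat at 1.03. Their summed level was 60000 to 115000 CPM in control and 74500 to 134000 CPM in fasted libraries of CT12 to CT44. In bulk liver, fewer cells of a type and less RNA per cell cannot be told apart.

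Per kilobase of exon, the order of the control levels of CT12 to CT44 ran from Hnf4a, the receptor that maintains the hepatocyte programme, at a median of 140.0 CPM per kb (112 to 193) to the vitamin D receptor Vdr at 0.0119 CPM per kb. Rxra, the main shared partner, followed Hnf4a at 83.4 CPM per kb (64.4 to 106) and did not overlap it at these times. At control CT8, before them, Hnf4a in female 2, the library rich in ribosomal RNA, was lower than at any of these times and Rxra in 1 male higher, so the separation holds for CT12 to CT44 only. The constitutive androstane receptor Nr1i3 came next at 59.1 CPM per kb (23 to 123), overlapping both neighbours, and the oxysterol receptor Nr1h3 after it at 37.9 CPM per kb (32 to 45.5). Nr2f6 at 36.7, Ppara at 35.5 and the pregnane X receptor Nr1i2 at 30.0 CPM per kb overlapped Nr1h3 in their ranges, so this order is not resolved. Nr1h2 at 10.6 and Nr5a2 at 10.0 CPM per kb followed, and the remaining 23 receptors had medians of 8.55 CPM per kb or less.

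At the low end, Vdr reached 10 counts in only 4 libraries, and its level ran from 0 to 0.516 CPM over the 80 libraries. The floor of 3 counts is 0.0501 CPM in the deepest and 0.117 CPM in the shallowest library, and it covers counting error only. Vdr therefore lay at the edge of detection, and no fold change is given for it. Nr4a3 (0 to 1.97 CPM) and Hnf4g (0 to 1.60 CPM) were also low, with 10 or more counts in 25 and 42 of the 80 libraries.

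Averaged over CT12 to CT44, 24 of the 32 receptors passed edgeR's quasi-likelihood test with Benjamini-Hochberg adjustment over all genes at 0.05, where 62.5% of all tested genes did. Of these receptors, 12 rose, against 29.5% of all genes, and 12 fell, against 32.9%. The median log2 difference was -0.05 over the receptors and -0.02 over all tested genes. The share of receptors called was 75%, beside that high background, and no test of the shares was made.

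**Figure D1:**
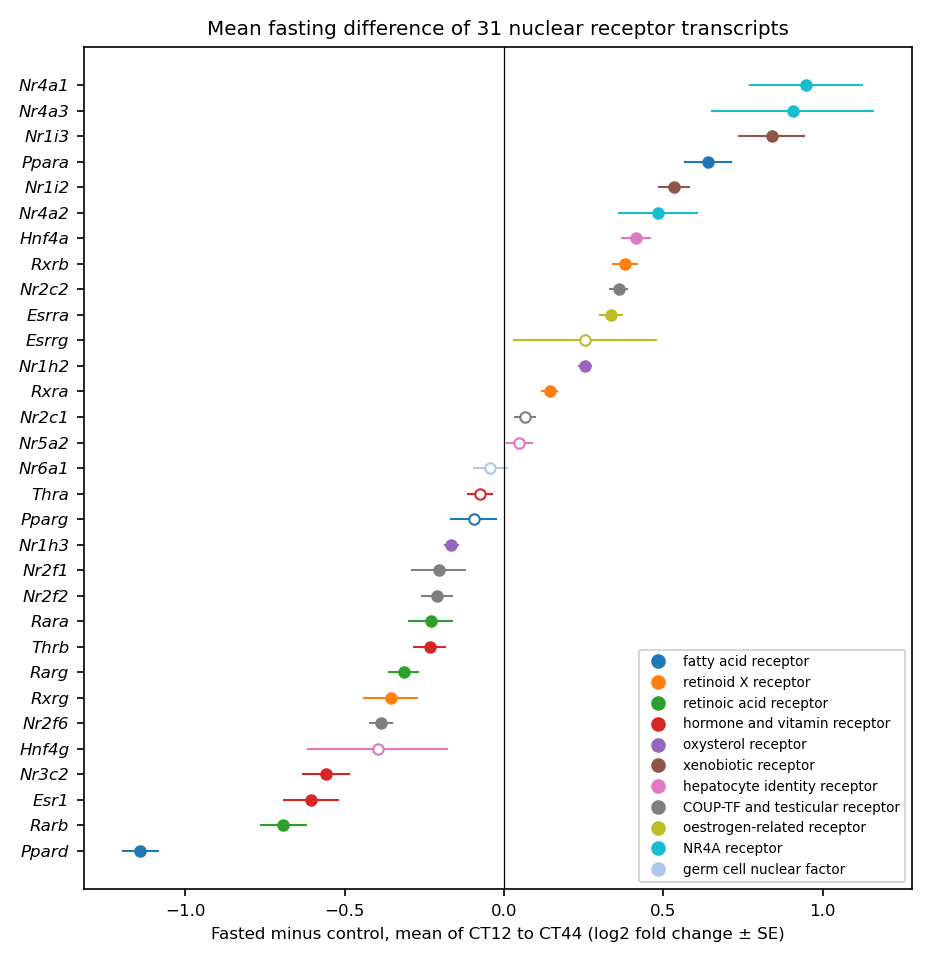
The plot shows the fasted minus control difference of 31 receptors on the x axis (log2 fold change ± SE, mean of CT12 to CT44), with 1 receptor per row and colour for role. Filled points passed an adjusted p of 0.05, and open points did not. All 3 NR4A receptors and both xenobiotic receptors lie to the right of 0, all 3 retinoic acid receptors lie to the left, and Ppard lies farthest left at -1.14. Vdr is not drawn.

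The fatty acid receptors moved apart. Ppard (PPAR-delta), known for fat oxidation in muscle and for timed lipid synthesis in liver, fell (chr17:28232700-28301474, GRCm38), and Ppara (chr15:85734983-85802819), the receptor that switches on hepatic fatty acid oxidation and ketone synthesis in fasting, rose. Pparg, the adipogenic member, passed no mean test, with a log2 difference of -0.09 ± 0.07 (SE).

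At CT24, Ppard stood at 81.8 and 57.3 CPM in the control males and at 81.2 and 79.3 CPM in the control females. The fasted livers held 12.2 and 11.1 CPM in males and 14.7 and 14.1 CPM in females. Every fasted library was below every control library at that time, and 1 control male was lower than the other control livers. At CT44 the control livers had 74.4 and 75.5 CPM in males and 36.6 and 67.0 CPM in females, against 14 and 16.5 CPM in fasted males and 10.9 and 14.5 CPM in fasted females. Again the groups did not overlap. The log2 difference was -2.53 ± 0.18 (SE, adjusted p = 1.16e-14) at CT24 and -2.16 ± 0.18 (adjusted p = 2.78e-13) at CT44. It was -1.14 ± 0.06 (adjusted p = 8.22e-22) over CT12 to CT44.

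Ppard did not fall at all hours. At CT32 its mean was 10.3 ± 0.90 CPM (SD, n = 4) in control and 11.0 ± 1.89 CPM in fasted livers, and at CT36 12.8 ± 1.41 against 11.6 ± 1.81 CPM. Control Ppard rose to 67.7 ± 19.0 CPM at CT20 and 74.9 ± 11.8 CPM at CT24 and was back at 10.3 CPM by CT32. Over CT12 to CT44, the 36 fasted libraries kept within 9 to 16.5 CPM, while the control libraries spanned 8.58 to 90.1 CPM. The fasted means at single times lay between 10.6 and 15.1 CPM, so the separation from control came with the control rise.

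Ppara at CT20 stood at 106 and 114 CPM in control males and 107 and 116 CPM in control females. The fasted livers had 305 and 312 CPM in males and 279 and 272 CPM in females. The groups were far apart, and the lowest fasted library had over 2 times the level of the highest control library. The difference at CT20 was a log2 of 1.40 ± 0.23 (SE, adjusted p = 2.85e-06), and the mean over CT12 to CT44 was 0.64 ± 0.07 (adjusted p = 3.53e-10). Ppara was called at 4 of the 9 fasted times. At CT32 the fitted log2 difference was -0.14 ± 0.22, and the control mean of 207 ± 41.2 CPM stood beside a fasted mean of 185 ± 26.7 CPM.

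At CT40 the library named above stood apart for Ppara. Fasted males held 267 and 245 CPM, fasted female 1 held 253 CPM and fasted female 2 held 61.9 CPM, against 108, 137, 91.8 and 124 CPM in the control livers. That female was below every control library, and the other fasted livers were above all of them.

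Pparg at CT20 had 7.92 and 5.34 CPM in control males and 5.75 and 5.04 CPM in control females. Fasted males had 3.04 and 3.23 CPM, and fasted females 5.53 and 3.14 CPM. A single fasted female overlapped the control range. CT20 was the only time at which Pparg was called, at a log2 of -0.70 ± 0.23 (adjusted p = 0.0143).

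The targets listed for the PPARs, a list chosen with earlier results of these data known, moved one way. All 11 of them rose, where 29.5% of all genes did. Their median log2 difference was 2.21, against -0.02 for all tested genes. They were led by Cyp4a14 at 4.91 and Cyp4a10 at 3.63, the microsomal fatty acid hydroxylases, and included Cpt1a at 1.46, which carries fatty acids into mitochondria. Whether Ppara, Ppard or their ligands had a part in these changes was not tested.

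**Figure D2:**
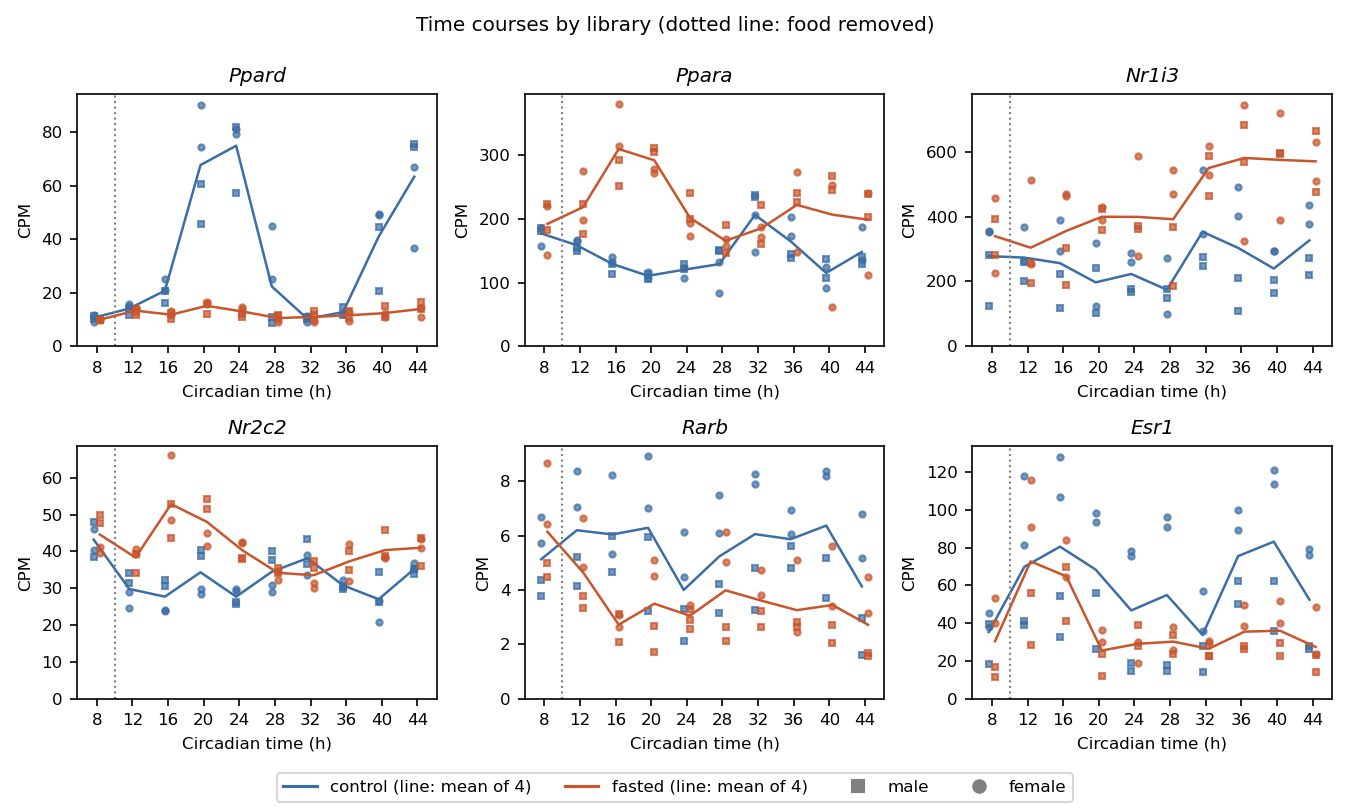
Each panel plots CPM against circadian time for 1 receptor, with 1 point per library (squares males, circles females), a line through the mean of 4 libraries and blue for control, orange for fasted. The dotted line marks food removal at CT10. Control Ppard peaks between CT20 and CT24 and again towards CT44, and fasted Ppard stays within 9 to 16.5 CPM.

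The xenobiotic receptors both rose. Nr1i3 (CAR) and Nr1i2 (PXR) are the liver's sensors of drugs and bile acids and drive cytochrome P450 genes. Nr1i3 at CT40 had 164 and 205 CPM in control males and 295 and 295 CPM in control females, and 597 and 593 CPM in fasted males and 719 and 389 CPM in fasted females. All fasted libraries exceeded all control ones. The difference at CT40 was a log2 of 1.30 ± 0.32 (adjusted p = 0.000934), and the mean over the fast 0.84 ± 0.11 (adjusted p = 2.01e-09). Nr1i3 was called up at 6 of 9 times and had a positive difference at all 9.

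Nr1i2 at CT16 had 71.8 and 66.3 CPM in control males and 109 and 84.2 CPM in control females. The fasted livers had 154 and 123 CPM in males and 165 and 167 CPM in females. The groups did not overlap, and the closest pair was a control female at 109 CPM and a fasted male at 123 CPM. The mean difference was 0.53 ± 0.05 (adjusted p = 7.49e-13), called at 6 of 9 times. Of the 7 listed CAR and PXR targets, 3 rose and 3 fell, with Cyp2b10 at a log2 of 1.92 and Cyp3a11 at 0.30 on one side and Gstm3 at -2.25 and Cyp2c29 at -0.90 on the other. These targets were therefore divided in direction where both receptor transcripts rose.

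Exons of Nr1i3 face those of Tomm40l, a mitochondrial import gene, on the opposite strand over 74.9% of their length in the GENCODE M21 annotation (GRCm38), at chr1:171213970-171220701. The library kit keeps strand, but the strand setting of the counting is not given in the sources used here. Tomm40l differed by a log2 of -0.83 ± 0.08 (adjusted p = 2.05e-13), from a control median of 11.1 to a fasted median of 4.86 CPM. The Nr1i3 medians were 261 and 466 CPM. Whether reads of Tomm40l entered the Nr1i3 counts was not tested.

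All 3 NR4A receptors, the immediate-early orphan receptors that respond to cAMP and stress signals, rose on average. Nr4a1 at CT24 had 0.868 and 0.763 CPM in control males and 1.51 and 1.98 CPM in control females, against 2.10 and 1.67 CPM in fasted males and 14.8 and 5.31 CPM in fasted females. One fasted male lay within the control range, and the fasted females were highest. The difference there was a log2 of 1.86 ± 0.55 (adjusted p = 0.0105), and over the fast 0.95 ± 0.18 (adjusted p = 1.14e-05). It was positive at 8 of 9 times and -1.08 ± 0.52 at CT28, which was not called.

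Nr4a3 at CT16 had 0.330 and 0.0241 CPM in control males and 0.205 and 0.164 CPM in control females, and the fasted livers had 1.97 and 0.318 CPM in males and 0.270 and 0.677 CPM in females. The groups overlapped, and a single fasted male stood highest. The mean difference of 0.91 ± 0.26 (adjusted p = 0.002) rests on low levels, with a median of 0.0912 CPM in control and 0.164 CPM in fasted libraries. Nr4a2 rose by a log2 of 0.48 ± 0.13 (adjusted p = 0.000823) and was called at 3 times. The mean call was lost under 2 of 17 alternatives for Nr4a2 and under 1 of 16 for Nr4a3.

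The retinoic acid receptors, which bind all-trans retinoic acid, all fell. Rarb at CT16 had 5.98 and 4.66 CPM in control males and 5.31 and 8.22 CPM in control females, against 2.07 and 3.12 CPM in fasted males and 3.07 and 2.62 CPM in fasted females. No fasted library reached the lowest control library at CT16, but the groups overlapped at the other 8 times. The mean log2 difference was -0.69 ± 0.07 (adjusted p = 1.92e-11), negative at 9 of 9 times and called at 6. Rarg fell by 0.31 ± 0.05 on the log2 scale (adjusted p = 2.69e-07), and Rara by 0.23 ± 0.07 (adjusted p = 0.00411), a call lost without the second male of each group (adjusted p = 0.117). Rarb exons face those of Top2b on the other strand over 34.1% of their length, and Top2b differed by a log2 of 0.10 ± 0.02. Top2b had the higher level, with control and fasted medians of 51.5 and 56.3 CPM against 5.47 and 3.13 CPM for Rarb. Whether reads of Top2b entered the Rarb counts was not tested.

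Their partners split. Rxrb rose by a log2 of 0.38 ± 0.04 (adjusted p = 3.45e-11) and Rxra by 0.14 ± 0.03 (adjusted p = 1.27e-05), while Rxrg fell by 0.36 ± 0.09 on the log2 scale (adjusted p = 0.000373). Rxra at CT40 had 486 and 457 CPM in control males and 387 and 373 CPM in control females, against 490 and 505 CPM in fasted males and 558 and 588 CPM in fasted females. The fasted libraries all lay above the control ones, and the closest pair was a control male at 486 and a fasted male at 490 CPM. Rxrg at CT16 had 2.48 and 5.62 CPM in control males and 4.92 and 7.19 CPM in control females, against 2.04, 2.66, 2.63 and 2.20 CPM in the fasted livers. One control male overlapped the fasted range, and the log2 difference was -1.06 ± 0.26 (adjusted p = 0.0022).

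Of 14 tested genes that supply or break down receptor ligands, 3 rose and 9 fell, beside 29.5% and 32.9% of all genes. Cyp26a1, which degrades retinoic acid, differed by a log2 of -2.19, and the vitamin D 25-hydroxylase Cyp2r1 by -1.09. The retinol carrier Rbp4 rose by 0.70 on the log2 scale, and Cyp26b1, the other retinoic acid hydroxylase, by 0.71.

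Among the receptors for hormones and vitamins, 3 of 5 fell and none rose on average, beside 32.9% and 29.5% of all genes. Vdr, at the edge of detection, is 1 of the 5. Esr1, the oestrogen receptor alpha, had 55.8 and 26.1 CPM in control males and 93.5 and 98.3 CPM in control females at CT20. The fasted livers had 12.2 and 23.5 CPM in males and 29.9 and 36.4 CPM in females. The groups overlapped across sexes, since control males reached down to 26.1 CPM, but within each sex every fasted liver was lower. The log2 difference at CT20 was -1.37 ± 0.27 (adjusted p = 5.37e-05), and the mean over the fast -0.61 ± 0.09 (adjusted p = 5.46e-08).

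Nr3c2, the mineralocorticoid receptor, had 13.3 and 17.4 CPM in control males and 6.64 and 11.2 CPM in control females at CT16, against 5.14 and 12.2 CPM in fasted males and 3.59 and 3.36 CPM in fasted females. One fasted male fell inside the control range. Its mean difference was -0.56 ± 0.07 (adjusted p = 1.00e-08) and negative at all 9 times. The thyroid hormone receptor Thrb fell by 0.23 ± 0.05 on the log2 scale (adjusted p = 0.00012), and 3 single times were called.

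Thra, the other thyroid hormone receptor, was the only receptor called down at some times and up at others. At CT16 it had 12.1, 13.0, 10.0 and 11.3 CPM in control livers and 9.87, 9.95, 6.19 and 7.25 CPM in fasted ones, with no overlap. At CT36 control livers had 10.9 and 10.1 CPM in males and 10.4 and 8.50 CPM in females, against 13.7 and 14.8 CPM in fasted males and 9.10 and 16.1 CPM in fasted females. At CT36 a single fasted female overlapped the controls. The log2 difference was -0.50 ± 0.12 (adjusted p = 0.00202) at CT16 and 0.42 ± 0.12 (adjusted p = 0.00811) at CT36, and the mean of -0.07 ± 0.04 (adjusted p = 0.11) did not pass. Of the 5 listed thyroid hormone targets, 2 rose and 2 fell, beside 29.5% and 32.9% of all genes. Klf9 stood at a log2 of 1.02 and Thrsp, a lipogenic gene, at -3.64.

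Thra exons face those of the clock repressor Nr1d1 over 5.70% of their length. Nr1d1 peaked at CT6.90 in control livers by the same cosine fit, with a log2 swing from trough to peak of 6.00, and rose by 0.96 ± 0.11 over the fast. Thra peaked at CT0.16. Whether reads of Nr1d1 entered the Thra counts was not tested.

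The oxysterol receptors, which sense cholesterol derivatives and drive its efflux and lipogenesis, moved in opposite directions by small amounts. Nr1h2 (LXR-beta) rose by a log2 of 0.25 ± 0.02 (adjusted p = 2.62e-13), called at 7 of 9 times, more often than any other receptor here. Nr1h3 (LXR-alpha) fell by 0.17 ± 0.02 on the log2 scale (adjusted p = 2.02e-08), called at 5 times. Of the 8 LXR targets, 4 rose and 4 fell, beside 29.5% and 32.9% of all genes. They ran from Srebf1 at a log2 of -3.13 to Mylip, which degrades the LDL receptor, at 0.94.

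Of the receptors of hepatocyte identity, Hnf4a rose by a log2 of 0.41 ± 0.05 (adjusted p = 9.69e-11), called at 5 times. Nr5a2 (LRH-1), a regulator of bile acid synthesis, differed by 0.05 ± 0.04 and Hnf4g by -0.40 ± 0.22, and neither passed. The oestrogen-related receptor Esrra, a partner of PGC-1 in mitochondrial genes, rose by 0.34 ± 0.04 (adjusted p = 1.74e-10) and was called at 6 times. Esrrg differed by 0.26 ± 0.23 and did not pass.

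Among the orphan receptors, Nr2f6 (EAR2), a repressive member of the COUP-TF family, fell and the testicular receptor Nr2c2 (TR4) rose. Nr2f6 at CT44 had 118 and 120 CPM in control males and 117 and 112 CPM in control females, against 83.9 and 73.8 CPM in fasted males and 56.0 and 72.7 CPM in fasted females. Its groups did not overlap at 6 of 9 times, with fasted below control at each. The mean difference was -0.39 ± 0.04 (adjusted p = 1.39e-12).

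Nr2c2 at CT16 had 30.7 and 32.1 CPM in control males and 24.2 and 23.8 CPM in control females, against 52.8 and 43.7 CPM in fasted males and 48.6 and 66.3 CPM in fasted females. Every fasted library exceeded every control library. Its log2 difference there was 0.94 ± 0.09 (adjusted p = 2.34e-10), and its mean 0.36 ± 0.03 (adjusted p = 3.15e-14). Nr2c1 (TR2) passed only at CT24, where the control livers had 10.9, 11.9, 15.4 and 11.7 CPM and the fasted ones 15.6, 14.5, 16 and 15.1 CPM. One control female overlapped the fasted range, and the log2 difference was 0.30 ± 0.10 (adjusted p = 0.0245).

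Nr2f6 exons face those of Ocel1 over 54.4% of their length and Nr2c2 exons those of Mrps25 over 30.7%. Ocel1 differed by a log2 of 0.04 ± 0.04 and did not pass, and Mrps25, with medians of 8.62 and 5.97 CPM, by -0.52 ± 0.05. Whether reads of Ocel1 entered the Nr2f6 counts, or reads of Mrps25 the Nr2c2 counts, was not tested. The COUP-TF receptors Nr2f2 and Nr2f1 fell by 0.21 ± 0.05 (adjusted p = 0.00034) and 0.20 ± 0.09 (adjusted p = 0.0372) on the log2 scale. The Nr2f1 call was lost under 6 alternatives, among them leaving out the first male (adjusted p = 0.363) or the first female (adjusted p = 0.239) of each group. The germ cell nuclear factor Nr6a1 differed by -0.04 ± 0.06 and did not pass.

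Of the 16 coregulators with which these receptors work, 12 rose and 3 fell, beside 29.5% and 32.9% of all genes. The coactivator Ppargc1a rose by a log2 of 1.73 and Ppargc1b by 1.00. The corepressor Ncor1 rose by 0.31 on the log2 scale, and Tbl1xr1 rose by 0.66 while Tbl1x fell by 0.47. Hdac3, the deacetylase of the corepressor complex, differed by -0.07 and did not pass.

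Receptors also expressed outside hepatocytes were measured beside markers of those cells. With fasting, 5 of 6 Kupffer cell markers, 4 of 6 stellate cell markers, 4 of 5 cholangiocyte markers and 3 of 6 endothelial markers fell. In turn, 1 stellate and 2 endothelial markers rose. Of all tested genes, 32.9% fell and 29.5% rose. The summed Kupffer markers ran from 184 to 666 CPM in control and from 126 to 405 CPM in fasted libraries, the stellate markers from 227 to 407 and from 207 to 419 CPM, and the cholangiocyte markers from 24.6 to 66.0 and from 6.78 to 50.3 CPM. The endothelial sums ran from 252 to 373 and from 247 to 393 CPM. None of these markers was at 0 in all libraries. Of the lymphocyte markers 3 of 5 fell, of the erythroid markers 1 of 3, and none of 3 neutrophil markers passed. Of 2 tested adipocyte markers Cidec, which fasting hepatocytes also use for lipid droplets, rose. The part of these cells in the falls of Rarb, Rxrg, Nr2f1, Nr2f2 or Esr1 was not tested.

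Time by time, no receptor was called at CT8, before food removal, where 1.33% of all genes were. At CT12, after 2 h without food, Nr2c2 alone was called, at a log2 of 0.37 ± 0.09 (adjusted p = 0.0233), with a background of 1.6%. At CT16, 14 receptors (43.8%) were called, beside 23.4% of all genes, at CT20 18 (56.2%, beside 36.6%) and at CT24 14 (43.8%, beside 24.1%). At CT28, 7 (21.9%) were called beside 21%, at CT32 8 (25%) beside 17.7% and at CT36 8 (25%) beside 26.8%. The last times had 17 each (53.1%), beside 39.9% of all genes at CT40 and 39.4% at CT44. Among the receptors printed by library, every fasted liver was above every control liver at 4 of 9 times for Ppara, Nr1i2 and Nr2c2. The same held at 3 times for Nr1i3 and Rxra and at 2 for Nr4a1. Every fasted liver was below every control liver at 6 of 9 times for Nr2f6, 5 for Ppard and 3 for Nr3c2. Rarb, Esr1, Rxrg and Nr2c1 had 1 such time below. For Nr2c1 it was CT28, not called at a log2 of -0.24, while its only call was a rise. Thra had 1 time above and 2 below, and Pparg, Nr4a3 and Hnf4g had none. Of the receptors not printed by library, Rxrb had 5 such times above, Nr1h2 4, Hnf4a and Esrra 3 each and Nr4a2 2. Below control, Nr1h3 had 5, Thrb 3, Nr2f2 2 and Rarg and Nr6a1 1 each. Rara had 1 above and 2 below, and Nr5a2, Nr2f1, Esrrg and Vdr had none. The share of all genes with such gaps is not given here, so these counts have no background beside them.

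**Figure D3:**
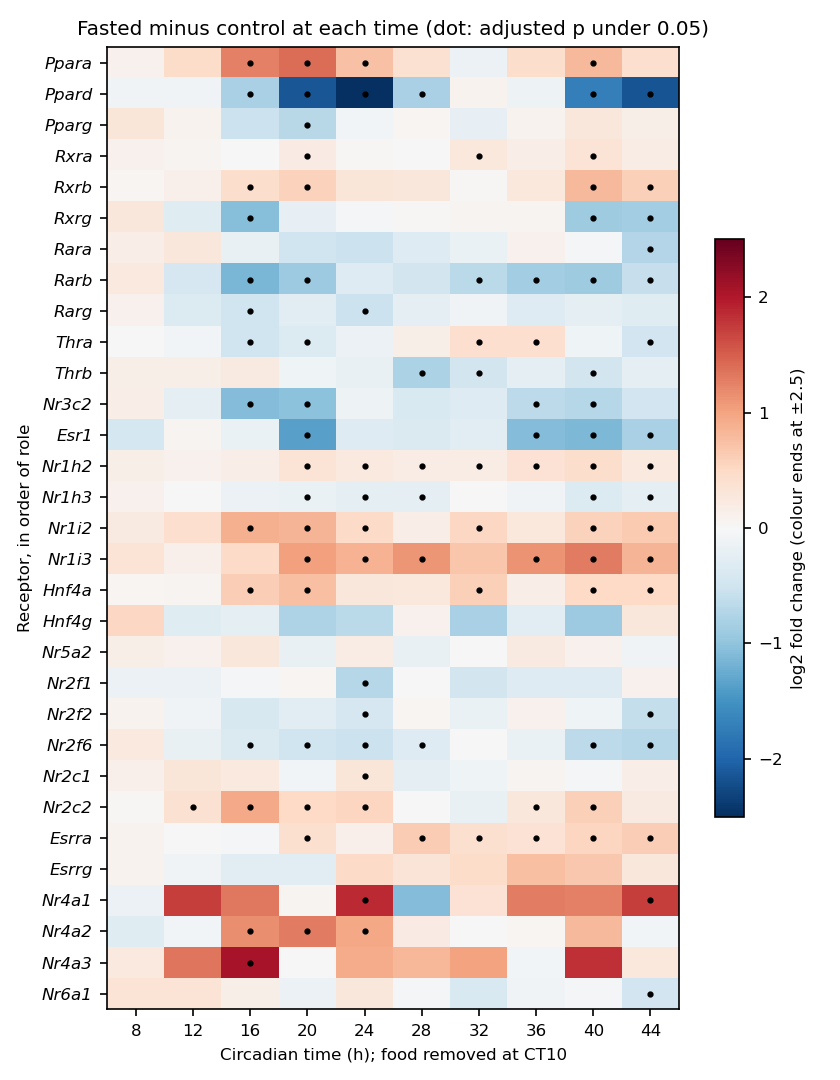
The heat map shows the fasted minus control log2 fold change of 31 receptors (rows, in order of role) at each circadian time (columns), red for higher in fasted livers and blue for lower. Dots mark an adjusted p under 0.05, of which there are none at CT8 and 1 at CT12. Vdr is not drawn.

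In control livers, 19 of the 32 receptors passed a test of a 24 h cosine, where 41.8% of all 20114 genes tested did. The median trough-to-peak swing was 0.45 over the receptors and 0.36 over all genes, on the log2 scale. Ppard had the largest among the receptors, 2.90 (adjusted p = 4.37e-14) with a peak at CT21.5, which ranked 221 among all genes. Its lowest, median and highest control levels over CT12 to CT44 were 8.58, 23.0 and 90.1 CPM.

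Esr1 peaked at CT15.6 with a trough-to-peak swing of 1.16 (adjusted p = 0.000118), and Nr3c2 at CT8.64 with 0.88 (adjusted p = 3.09e-06). The Nr3c2 control mean was 23.9 ± 1.90 CPM (SD, n = 4) at CT8, 10.3 ± 1.01 CPM at CT24 and 20.3 ± 4.61 CPM at CT32, so that it was high at the same phase of both days. Thra had 0.81 (adjusted p = 3.02e-10), with control means of 11.6 ± 1.29 CPM at CT16 and 18.3 ± 1.77 CPM at CT24.

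Nr4a1 had a fitted trough-to-peak swing of 1.66 with a peak at CT2.82 (adjusted p = 0.00876). It rests on few libraries: at CT28 the control livers had 1.30 and 4.33 CPM in males and 3.4 and 26 CPM in females. Without the second female of each group the difference was 0.56 and the test did not pass (adjusted p = 0.425), and the limma-trend fit did not pass either (adjusted p = 0.253).

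The other 14 receptors called rhythmic had differences from 0.21 to 0.66. Ppara at CT8.76, Pparg at CT9.27 and Rxra at CT9.31 peaked late in the subjective day. Nr1i2 peaked at CT13.3, Esrra at CT14.1, Nr1h3 at CT19.7 and Nr2f6 at CT22.5, in the subjective night. Nr1h2 peaked at CT4.29 and Nr2f2 at CT4.19. The differing peaks span the day, and no test of their order was made.

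The promoters of Ppard, the receptor with the largest rhythm, and of Thrb, a called receptor with an E-box at 1 of its 2 annotated starts, are shown from RefSeq for GRCm38.p6. Each run is the 250 bases before an annotated start, 5′ to 3′ on the strand of the gene, in lower case with any searched motif in capitals. The motifs searched on both strands, from 250 bases before to 50 after the start, were the E-box CACGTG, the receptor half-site AGGTCA, the D-box TTATGTAA, the cAMP element TGACGTCA and the forkhead site GTAAACA. Overlaps between motifs were allowed.

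Ppard, chr17:28232504-28232753, plus strand: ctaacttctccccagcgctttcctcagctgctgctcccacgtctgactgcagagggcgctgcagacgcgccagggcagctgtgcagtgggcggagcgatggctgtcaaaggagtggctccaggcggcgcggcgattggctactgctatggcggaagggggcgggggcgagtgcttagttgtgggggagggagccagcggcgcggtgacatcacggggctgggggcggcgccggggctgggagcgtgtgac
Thrb, chr14:17981394-17981643, plus strand: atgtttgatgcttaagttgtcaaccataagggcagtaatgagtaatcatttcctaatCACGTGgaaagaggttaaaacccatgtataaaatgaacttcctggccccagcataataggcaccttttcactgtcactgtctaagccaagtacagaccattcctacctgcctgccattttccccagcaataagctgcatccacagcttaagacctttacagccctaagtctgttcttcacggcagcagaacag

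The Ppard window held none of the 5 motifs, and the Thrb window shown held 1 E-box. The other Thrb window, at chr14:17660710-17661009, held no E-box and 1 half-site. The Thrb rhythm, with a swing of 0.21 (adjusted p = 0.0378), was lost under several alternatives, among them leaving out the second female of each group (adjusted p = 0.244). Windows of Nr1i3 and Rara also held an E-box, and neither receptor passed the control rhythm test (adjusted p = 0.327 and 0.145). Over the 49 promoters of the 30 receptors with an entry, 8.16% held the E-box and 18.4% the half-site, against 7.15% and 16.3% of all 32851 promoters of the same length. The D-box was in 0.0% of receptor promoters and 0.938% of all, the cAMP element in 2.04% and 1.79%, and the forkhead site in 4.08% and 3.65%. A match here is a match of letters and not a bound site.

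Comparing the rhythm of fasted with control livers over CT12 to CT44, 10 of 32 receptors differed, where 23.2% of 20965 genes tested did. This fit also held a linear change over time, so its swings and peaks are not those of the control rhythm test above. Ppard differed most, from a trough-to-peak swing of 2.87 in control to 0.35 in fasted livers (adjusted p = 6.47e-11). Its fasted libraries ranged from 9 to 16.5 CPM, as given above. Nr2f6 went from 0.52 with a peak at CT22.7 to 0.30 with a peak at CT4.11 (adjusted p = 2.86e-05), and Nr2c2 from 0.26 at CT4.29 to 0.50 at CT18.5 (adjusted p = 6.92e-05).

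Thra kept a similar size, 0.82 and 0.92, with peaks at CT0.20 and CT3.98 (adjusted p = 0.000114). Its control means were 11.6 CPM at CT16, 18.3 CPM at CT24 and 9.97 CPM at CT36, and its fasted means 8.32, 16.8 and 13.4 CPM, with 19.7 CPM at CT28. Ppara also kept its size, 0.61 and 0.60, with fitted peaks at CT8.81 and CT17.1 (adjusted p = 0.000932). Its means at CT16 and CT32 were 129 and 207 CPM in control and 310 and 185 CPM in fasted livers, an opposite order.

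Of the other receptors that differed, Rxrb (0.11 to 0.44), Rara (0.29 to 0.76), Thrb (0.15 to 0.68) and Rxrg (0.32 to 1.04) had the larger fitted swing in fasted livers, and Nr4a1 (1.69 to 0.79) the smaller. The Nr4a1 call was lost without the second female of each group (adjusted p = 0.745), and those of Rxrg, Thrb and Rara without the second male (adjusted p = 0.134, 0.125 and 0.0765). Over CT12 to CT44, a cosine in fasted livers cannot be told apart from a passing response to food loss, since only 1 fast was sampled.

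**Figure D4:**
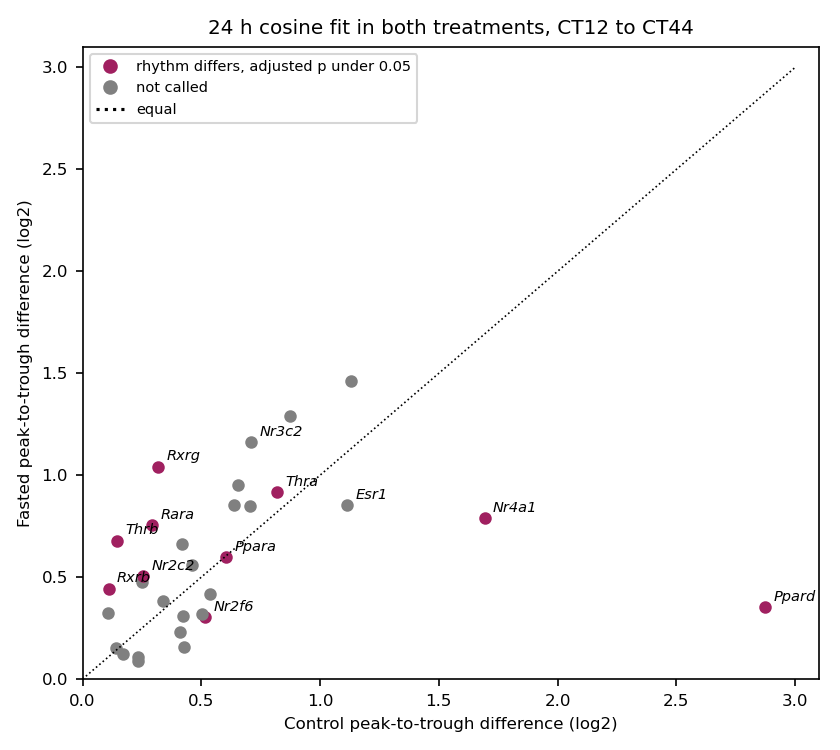
Each point is 1 receptor, with the control trough-to-peak swing (log2) on the x axis and the fasted one on the y axis. Both come from the 24 h cosine fit over CT12 to CT44, which also held a linear change over time. Coloured points passed the test of a different rhythm, and the dotted line marks equal sizes. Ppard lies far below the line at 2.87 and 0.35, and Vdr is not drawn.

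In control livers, 19 of the 32 receptors differed between females and males, where 39.2% of all genes did. Of them 12 were higher in females, against 20.6% of all genes, and 7 higher in males, against 18.6%. The largest difference was that of Hnf4g, a minor relative of Hnf4a, with a log2 of 1.96 ± 0.28 (adjusted p = 1.59e-07). Its lowest, median and highest levels were 0.0169, 0.148 and 0.282 CPM in the 20 control males and 0.113, 0.518 and 1.60 CPM in the 20 control females. The ranges overlapped, and the male median was close to the counting floor.

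Esr1 had 14.3, 30.4 and 62.4 CPM (lowest, median and highest) in control males and 35.9, 90.2 and 128 CPM in control females. The ranges overlapped between 35.9 and 62.4 CPM, and the log2 difference was 1.39 ± 0.12 (adjusted p = 2.20e-13). Rxrg had 2.48, 3.72 and 5.62 CPM in males and 3.03, 6.28 and 9.66 CPM in females, a log2 difference of 0.82 ± 0.11 (adjusted p = 1.23e-07). Nr4a3 had 0, 0.0645 and 0.330 CPM in males and 0.0221, 0.170 and 0.331 CPM in females, a log2 difference of 1.09 ± 0.35 (adjusted p = 0.0122), and both medians were close to the counting floor. The Nr4a3 call was lost without the second female of each group (adjusted p = 0.232), and also without the first female or the first male.

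Rarb (0.79 ± 0.10) and Nr1i3 (0.71 ± 0.14) were also higher in females on the log2 scale, and Esrra (-0.35 ± 0.05), Nr3c2 (-0.35 ± 0.10) and Rxra (-0.20 ± 0.04) were higher in males. Of the cell type markers, all 6 of Kupffer cells, all 6 of stellate cells and 5 of 6 of endothelial cells passed the same test, each with a higher level in females. Of all genes, 20.6% were higher in females and 18.6% in males. All 3 erythroid markers passed with a lower level in females, led by Alas2 (-3.47). Of the hepatocyte markers Alb (0.37) was higher, and Apoa1 (-0.31) and Serpina1a (-0.38) were lower. The cholangiocyte markers Krt7, Epcam and Spp1 were higher and Sox9 (-0.71) was lower. The part of these cells in the receptor differences was not tested. Of the 7 listed CAR and PXR targets, 4 differed by sex, beside 39.2% of all genes. Cyp2b9 (10.7), Cyp2b10 (4.09) and Ugt1a1 (0.58) were higher in females on the log2 scale, and Cyp3a11 (-0.35) was lower. Cyp2c29, Gstm3 and Cyp2c55 did not pass.

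The fasting difference itself depended on sex for 7 receptors, where 12.4% of all genes did. In 4 it was more positive in females (5.35% of all genes) and in 3 more negative (7.02%). The strongest was Esr1. Over CT12 to CT44 its lowest, median and highest levels were 35.9, 92.1 and 128 CPM in control females and 18.8, 38.1 and 116 CPM in fasted females, but 14.3, 30.4 and 62.4 CPM in control males and 12.2, 26.9 and 69.6 CPM in fasted males. The fasted female median lay near the lowest control female, and the male ranges nearly coincided. The log2 difference was -1.06 ± 0.12 in females and -0.15 ± 0.12 in males, and their difference -0.91 ± 0.17 (adjusted p = 0.000453).

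Nr2c1 had medians of 15.9 CPM in control and 17.7 CPM in fasted females and of 17.1 and 15.8 CPM in control and fasted males, all ranges overlapping. Its difference was 0.21 ± 0.05 in females and -0.08 ± 0.05 in males (adjusted p of the sex term = 0.00356). Pparg had medians of 7.29 and 7.80 CPM in control and fasted females and 8.36 and 6.87 CPM in control and fasted males, again overlapping. Its log2 difference was 0.21 ± 0.10 in females and -0.40 ± 0.11 in males (adjusted p of the sex term = 0.00474). In both receptors the difference was positive in females and negative in males.

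Rxra rose by a log2 of 0.24 ± 0.04 in females and 0.04 ± 0.04 in males (adjusted p of the sex term = 0.0133). Its medians were 411 and 497 CPM in control and fasted females and 480 and 491 CPM in control and fasted males. The fasted sexes were thus closer to each other than the control ones. Ppard fell in both sexes, by 1.33 ± 0.08 in females and 0.95 ± 0.08 in males on the log2 scale. Rxrb (sex term 0.27 ± 0.08) and Nr5a2 (-0.29 ± 0.08) completed the 7. With 1 male replicate of each group left out, 1 of these 7 calls was left, and without the fasted libraries CT40 female 2 and CT44 female 1 there were 4.

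**Figure D5:**
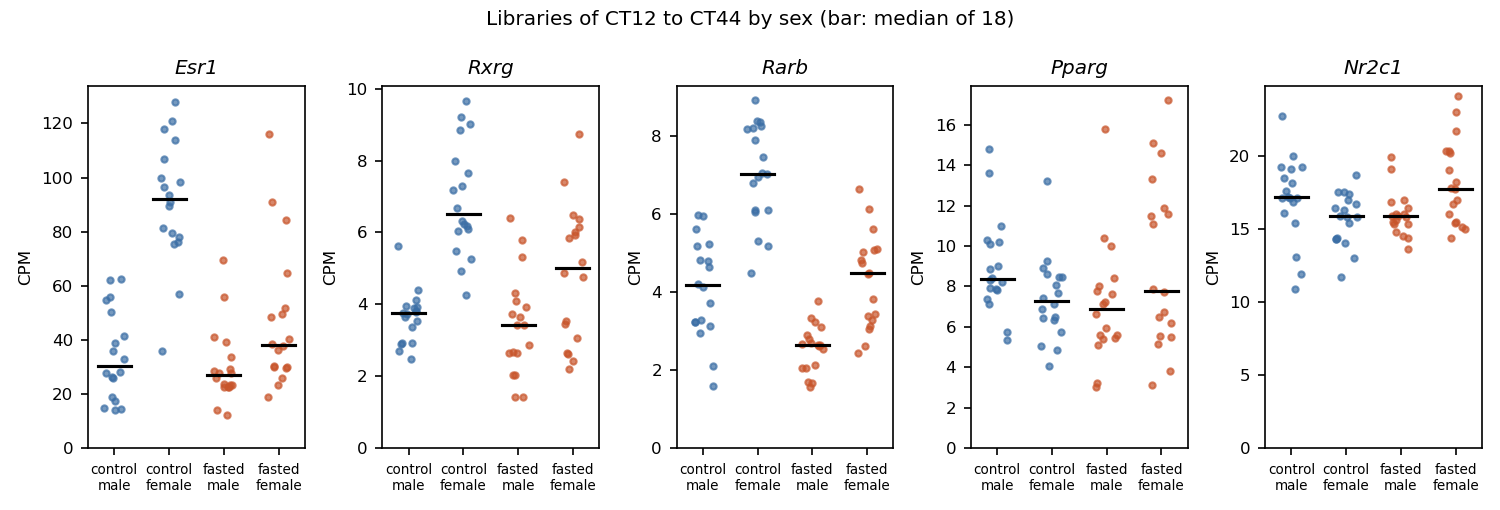
Each panel plots the CPM of 1 receptor in the libraries of CT12 to CT44, by treatment and sex, with 1 point per library and a bar at the median of 18. Control females stand above control males for Esr1 (medians 92.1 and 30.4 CPM), Rxrg and Rarb, and the fasted Esr1 medians are 38.1 CPM in females and 26.9 CPM in males.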

How the data were processed

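Polyadenylated RNA of 80 mouse livers was sequenced from a stranded library. The authors deposited raw gene counts, which were used as given, and tables of normalised values and exon counts, which were not used here. The submitters' processing notes name Trimmomatic, HISAT2, DESeq2 and the build GRCm39; the counting program is not given in the sources used here. The accompanying article is a review without methods for these libraries. The members and the gene lists were chosen with earlier results of these data known.

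Genes were filtered with filterByExpr, scaled by TMM and tested with edgeR 4.0.16 (R 4.3.3, quasi-likelihood test, trended dispersion), with 1 mean for each treatment, time and sex. Contrasts gave the mean fasting difference of CT12 to CT44, the difference at each time, its dependence on sex, and the control sex difference. Cosine terms of 24 h gave the rhythm in the 40 control libraries. Its change in the 72 libraries of CT12 to CT44 came from cosine terms of 24 h beside a linear change over time. P-values were adjusted by Benjamini-Hochberg over all genes tested, and calls were made at 0.05. Alternatives used limma 3.58.1 and DESeq2 1.42.0. Values in single livers are given for the 5 receptors that rose and the 5 that fell most, the 5 with the largest rhythm, and the 4 leading in each of the sex, fasting by sex and rhythm difference tests; the time printed is that of a large called difference, and CT44 of Ppard, CT40 of Ppara, CT36 of Thra and control CT28 of Nr4a1 were added after their values were seen. Other members are given by single values. The code of each test was run on simulated counts with known changes. Those counts had independent genes, trended dispersion and no stray libraries, so they do not check the calls in these data. Locations and exon overlaps come from GENCODE M21 (GRCm38), older than the build of the files, through Ensembl numbers that matched for all 32 members.

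Depth was 25534901 to 59927771 counts, with a median of 42303883, which limits Vdr, Nr4a3 and Hnf4g. The titles' sex matched sex-linked transcripts in 80 of 80 libraries. The same replicate number did not pair livers across treatments: correlations of 20 pairs ran from -0.0564 to 0.249, with 1 over 0.1. The 2 libraries of the same treatment, time and sex differed beyond sampling noise in all 40 such pairs (chi-square per gene of 14.8 or more).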

Additional observations from a re-analysis of the deposited data

Results flagged for a closer look

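Over 32 receptors, 640 groups of 4 livers were examined for a liver far from the others, and 42 had one by Dixon's test of the gap over the range of log2 CPM, where chance gives about 32, or 1 in 20. Of the groups printed above, 4 had one: Ppara in fasted CT40 female 2 (gap over range 0.9405), Ppard in control CT24 male 2 (0.9101), Pparg in fasted CT20 female 1 (0.8993) and Ppard in control CT44 female 1 (0.8346). Fasted CT40 female 2 held 4 of the 42, more than any other library: Ppara at 61.9 CPM against 245 to 267 CPM in the others of its group, Nr2f6 at 45.6 against 79.5 to 83.1 CPM, Nr1i2 at 61.4 against 129 to 144 CPM, and Rxrb at 82.1 against 38.0 to 40.9 CPM.

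The fasting effect differed between the sexes, females minus males on the log2 scale, for Esr1 (-0.91), Nr2c1 (0.29), Pparg (0.61), Rxra (0.20), Nr5a2 (-0.29), Ppard (-0.39) and Rxrb (0.27). The rhythm differed between treatments for Ppard (adjusted p = 6.47e-11), Nr2f6 (2.86e-05), Nr2c2 (6.92e-05), Thra (0.000114), Ppara (0.000932), Rxrb (0.00139), Rara (0.0021), Thrb (0.0103), Rxrg (0.023) and Nr4a1 (0.0327). These are edgeR tests of the difference itself.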

How the results depend on the processing

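Under 2 other scalings, 2 other filters, limma-trend, DESeq2, the replicate block and left-out libraries, no mean fasting call of the 24 changed direction, and 15 passed throughout. The replicate block, with numbers that do not pair the livers, gave 12 receptors that rose, 12 that fell, 7 with a sex-dependent effect and 19 rhythmic, and moved no count. Left-out replicates gave 12 to 13 that rose, 11 to 12 that fell, 1 to 8 with a sex-dependent effect (1 without either male replicate), 14 to 17 that differed by sex, 15 to 19 rhythmic, 6 to 9 of differing rhythm and 51 to 99 of 104 calls at single times, 51 without either male replicate. Requiring a 1.5-fold change left 4 that rose and 3 that fell, and a 1.5-fold peak-to-trough ratio left 8 rhythmic. Males alone gave 7 that fell. For the sex-dependent effect, the filter of 1 count in total gave 11, an adjusted p of 0.01 gave 3, and leaving out fasted CT40 female 2 and CT44 female 1, chosen after seeing the data, gave 4. Averaging both treatments turned the sex differences of Pparg (0.00) and Nr2c1 (0.01). Causes were not tested. Nr2f1 lost its fall under 6 alternatives, and depth limits Vdr, Nr4a3 and Hnf4g.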
